A study of Mus musculus with 6 samples.

Results

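The subject is 10 genes that encode chains of the 2 network-forming proteins of basement membranes: the collagen IV genes Col4a1, Col4a2, Col4a3, Col4a4, Col4a5 and Col4a6, and the laminin genes Lama1, Lama5, Lamb1 and Lamb2. They were chosen by name, and their probes were found by matching RefSeq accessions. All 10 were on the array and all 10 were kept among 15239 named genes, of 17305 named on the array. RNA was measured on 6 one-colour Agilent arrays of mouse embryonic kidney at E14.5, an embryonic day at which nephrons are still forming, all from hybrids of the 129 and C57BL/6 strains. The study asked how loss of Sall1, a zinc finger transcription factor of nephron progenitors, changes the kidney. In the first line, floxed Sall1 was deleted by Six2Cre, which acts in nephron progenitors, with 2 control arrays (numbered 5 and 2) and 2 knockout arrays (7 and 9). In the second, a tamoxifen-inducible CreER at Sall1 deleted floxed Sall1, with 1 control array (2) and 1 knockout array (5), tamoxifen given at E12.5, 48 hours before the kidneys were collected.

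The line of each array was inferred from the style of its title together with the design text. The titles of the arrays taken as Six2Cre do not name that line. Tamoxifen is written for all 6 samples, so whether the Six2Cre embryos received it is unclear. The CreER control is titled as carrying a wild-type and a floxed allele and only its partner as carrying CreER, so CreER and loss of Sall1 cannot be told apart in that pair. Neither Cre in the Six2Cre controls nor a separate embryo for each array is stated in the sources used here. The p-values therefore measure only the spread between these arrays.

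Basement membranes are thin sheets of matrix under every epithelium and around capillaries. Collagen IV chains assemble as trimers: α1 with α2 in nearly all basement membranes, α3 with α4 and α5 in the mature glomerular filter and parts of the tubule, and α5 with α6 in some epithelia such as Bowman's capsule. Laminins are trimers of an α, a β and a γ chain; in the kidney, α1 chains mark early nephron structures, and α5 with β2 takes over as the glomerular filter matures. Mutations of COL4A3, COL4A4 or COL4A5 cause Alport syndrome and of LAMB2 Pierson syndrome.

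Collagen IV genes lie in head-to-head pairs, so that the members of a pair are read outward from a shared stretch between their starts. Col4a5 and Col4a6 are shown because both chains can join the same trimer and yet their array profiles differed in shape. Each line gives the 150 bases just before the RefSeq start of the gene, 5′ to 3′ on its coding strand, from RefSeq for build GRCm38.p6, at chrX:141475220-141475369 (plus strand) for Col4a5 and chrX:141474096-141474245 (minus strand) for Col4a6. Capitals mark a match to the CCAAT box.
Col4a5: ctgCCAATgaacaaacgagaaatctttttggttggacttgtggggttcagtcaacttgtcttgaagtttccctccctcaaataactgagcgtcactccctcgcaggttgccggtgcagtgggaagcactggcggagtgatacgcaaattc
Col4a6: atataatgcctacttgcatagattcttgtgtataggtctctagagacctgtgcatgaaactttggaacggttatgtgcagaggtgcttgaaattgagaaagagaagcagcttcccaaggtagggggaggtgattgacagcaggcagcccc
The CCAAT box was searched as CCAAT or, on the other strand, ATTGG. In the longer RefSeq window (250 bases before to 50 after the start), entries were matched for 8 of the 10 genes, not for Col4a3 and Lama1. A CCAAT box stood in the windows of Col4a1, Col4a2, Col4a5 and Lamb1, against 37.4% of all 32851 windows; the Col4a1 and Col4a2 windows overlap, so theirs may be the same bases. The GC box, GGGCGG on either strand, occurred 4 times in the Lama5 window, 3 times in Col4a2, 2 times in Lamb1 and 1 time each in Col4a1, Col4a5 and Col4a6, and at least 1 time in 35.7% of all windows. No member window held CACGTG (in 7.15% of all windows) or TAATTA (5.29%). The share of G and C was 74.0% in the Col4a1 window and 73.7% in Col4a2, where the median of all windows is 52.7%. It was 48.3% for Col4a6, 52.7% for Col4a5 and 44.0% for Lamb2.

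Array values below are log2 of the processed signal relative to the 75th percentile of that array; 0 is the level of that percentile. A difference is knockout minus control. Six2Cre control 5 and knockout 7 shared slide 1, while slide 2 held the remaining 4, so each Six2Cre difference can also be read within a slide. A probe's brightness depends on its sequence, so levels are compared between arrays and not between genes. On the CreER knockout array 71.7% of probes were well above background, against 80.0% to 82.9% on the others, and the SD of its negative controls was 4.01 against 1.47 to 1.61. Sall1 itself was 2.37-fold lower in the Six2Cre knockouts (-1.25, SE 0.37, limma with Benjamini-Hochberg adjusted p = 0.587) and 6.87-fold lower in the CreER pair. Its single probe was well above background on every array, but the sources used here do not say whether it lies in the deleted part. All 8 kidney markers were well above background on all 6 arrays. Their levels were not alike: all 8 were lower in the Six2Cre mean, 7 of them in both slide pairs, with a median difference of -0.50.

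**Figure D1:**
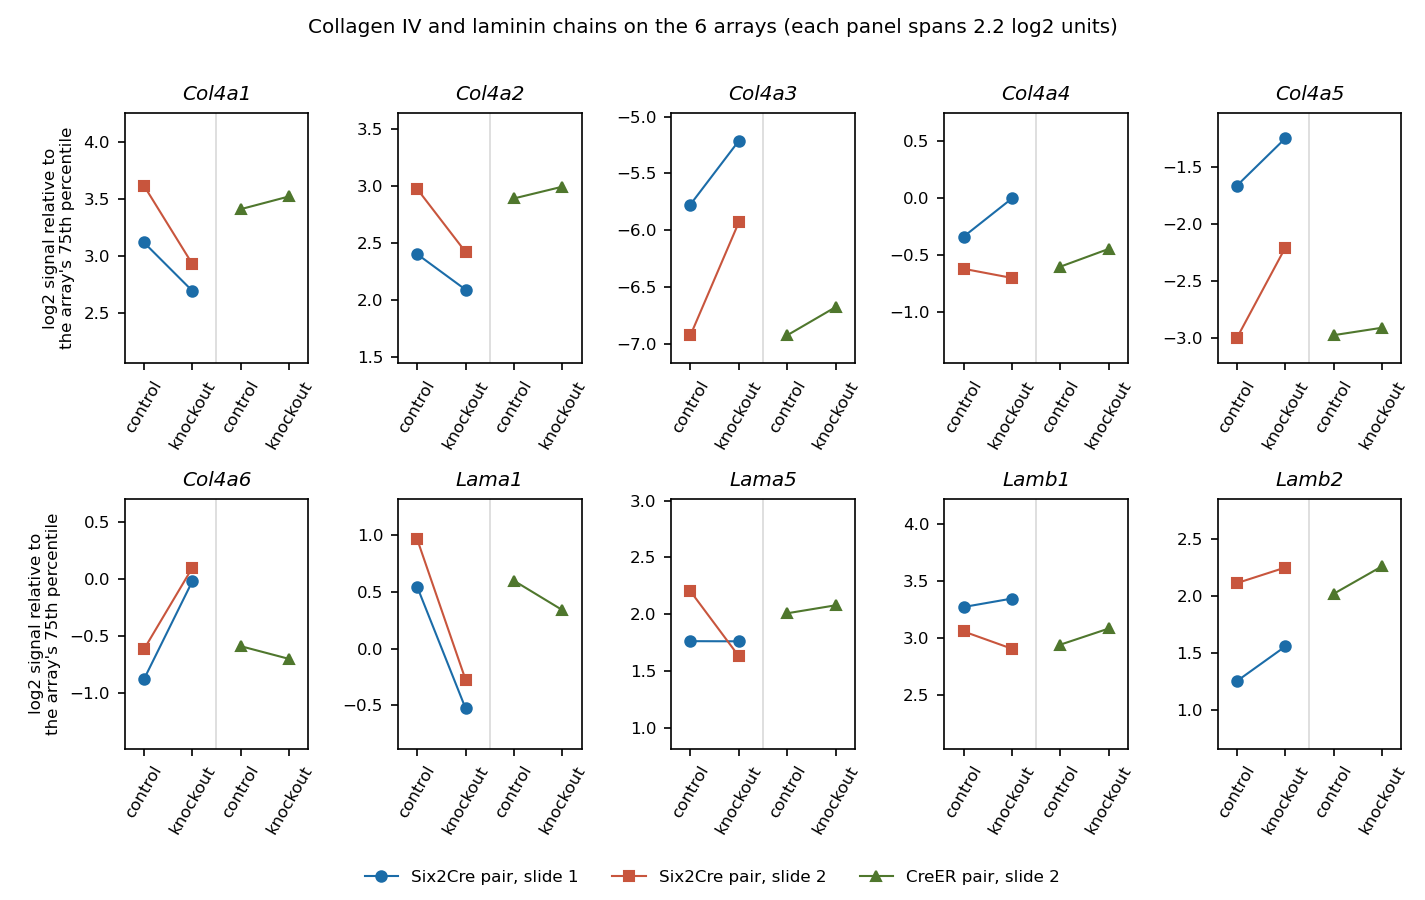
Level of the 10 collagen IV and laminin genes on each of the 6 arrays, as log2 signal relative to the array's 75th percentile. Each point is 1 array, and lines join a control and a knockout of the same slide and line. Every panel spans the same number of log2 units, centred on the values of its gene. Lama1 was lower and Col4a6 higher in the knockout of both Six2Cre pairs, whereas Col4a5 and Col4a3 sat higher on slide 1 than on slide 2 in control and knockout alike.

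Across the Six2Cre line, the differences largest against their error were a lower level of the laminin α1 gene Lama1 (2.22-fold) and a higher level of the collagen α6(IV) gene Col4a6 (1.73-fold). The α1(IV) and α2(IV) genes were 1.47-fold and 1.35-fold lower, the dim α3(IV) gene 1.71-fold higher, and Lamb1 lay within 0.04 log2 units of its controls. None of the 10 passed in the fit of the 4 groups, where limma called 0% of the 26400 features at a Benjamini-Hochberg adjusted p under 0.05. At an unadjusted p under 0.05, that fit held 1668 features, 2 of them members (Lama1 and Col4a6). With the slide as a block, limma again called 0%, with 3078 features and 5 members at an unadjusted p under 0.05. The slide block with a variance trend and robust moderation called 675 features: 338 lower (1.28%), with Lama1 as the only member among them, and 337 higher (1.28%), with none. Both block settings left 1 residual degree of freedom within the Six2Cre line, and on simulated data they made more false calls than their threshold allows, so their adjusted p may be too low.

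The median difference over the 10 genes was 0.04, and over all features 0.03. Within slides the members' medians were 0.19 and -0.12 (all features 0.03 and 0.06). Lower in both slide pairs were 4 members (Col4a1, Col4a2, Lama1, Lama5), a pattern of 24.0% of features, and 4 were higher in both (Col4a3, Col4a5, Col4a6, Lamb2), a pattern of 34.8%. By size, at least 1.5-fold lower in both pairs was Lama1 alone (3.19% of features) and at least 1.5-fold higher was Col4a6 alone (4.52%). Both knockout values lay below both control values for Col4a1, Lama1 and Lama5, and above them for Col4a6; groups that do not overlap, in either direction, were seen in 30.2% of features. With only 10 members, nothing particular to them is read from these counts. In bulk RNA, fewer cells of a type and less RNA per cell cannot be told apart.

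**Figure D2:**
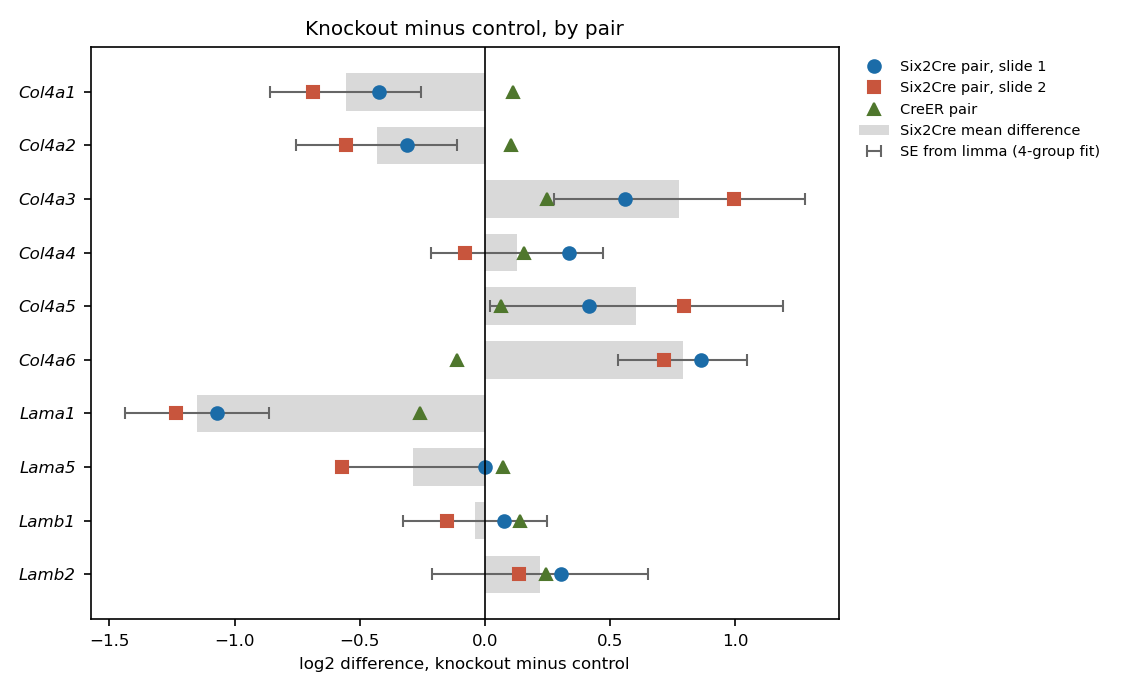
Log2 difference, knockout minus control, of each of the 10 genes in the Six2Cre slide 1 pair, the Six2Cre slide 2 pair and the CreER pair; each point is a difference of 2 arrays, bars are the Six2Cre means and error bars their SE from the 4-group limma fit. Lama1 lay below 0 in all 3 pairs, whereas Col4a6 lay above 0 in both Six2Cre pairs and slightly below it in the CreER pair.

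Lama1 encodes the laminin α1 chain, the α subunit of the first laminin of forming nephrons. On slide 1 it read 0.54 in Six2Cre control 5 and -0.52 in knockout 7. On slide 2 it read 0.96 in control 2 and -0.27 in knockout 9. Both knockouts lay more than 0.8 log2 units below the lower control. The Six2Cre difference was -1.15 (SE 0.29, n = 2 arrays a group, limma adjusted p = 0.458), and 2.10-fold and 2.35-fold lower within slides 1 and 2. With the slide block the limma adjusted p was 0.171, and with variance trend and robust moderation it was 0.0120 (SE 0.15), the only setting in which Lama1 passed. It was measured by 1 probe. In the CreER line the control read 0.60 and the knockout 0.34, a difference of -0.26. Lama1 was the member lower in all 3 pairs, a pattern of 14.3% of features. Fitted over both lines with line and slide as covariates, its difference was -0.85 (SE 0.24, limma adjusted p = 0.439); that fit called 0% of features, with 2570 at an unadjusted p under 0.05, among them 2 members.

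Nephron progenitor markers were lower on the same Six2Cre knockout arrays as Lama1. All 8 listed markers were lower in both Six2Cre pairs, with a median difference of -1.37. Their summed level, relative to the 75th percentile, was 31.4 and 40.5 on the Six2Cre controls and 11.2 and 12.0 on the knockouts, and 40.9 and 23.5 on the CreER control and knockout. The brightest markers carry such a sum, and Cited1 read 3.91 and 1.06 in the CreER pair. Traf1 and Meox1 were not lower there (0.10 and 0.09), and the list's median CreER difference was -0.37. Of 15238 other genes, Crym, which is on that marker list, had the profile nearest to Lama1 over the 6 arrays, at a Euclidean distance of 0.24 after centring. Crym read 3.12 and 3.70 on the Six2Cre controls, 2.09 and 2.30 on the knockouts, and 3.39 and 3.14 on the CreER control and knockout. Chst2 (0.26), a sulfotransferase, and Plxna4 (0.29), a semaphorin co-receptor, followed, and neither is on that list. These genes were picked for that likeness, so they share the Lama1 profile by choice. The proximal tubule list also differed in the Six2Cre line, with all 8 markers lower in both pairs and a median of -2.95. In the CreER pair the median of the proximal tubule list was 0.15 and its summed level 5.37 and 5.75. The part of these markers in the Lama1 difference was not tested.

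Lama5 encodes the laminin α5 chain of mature basement membranes, made by ureteric epithelium, podocytes and endothelium. It read 1.76 in both Six2Cre control 5 and knockout 7, a difference of only -0.0014. On slide 2 it read 2.20 in control 2 and 1.63 in knockout 9. Its groups counted as not overlapping only through the small gap on slide 1. The Six2Cre difference was -0.29 (SE 0.28); it was -0.067 without control 2 and -0.51 without control 5. In the CreER pair Lama5 read 2.01 and 2.08.

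Of the β chains, Lamb1 encodes laminin β1, partner of α1 in early laminin. It read 3.27 in Six2Cre control 5 and 3.35 in knockout 7, then 3.06 in control 2 and 2.91 in knockout 9, and 2.94 and 3.08 in the CreER pair. The pairs differed in sign, and the Six2Cre difference was -0.04 (SE 0.29). Lamb2 encodes laminin β2, which replaces β1 in the glomerular filter. It read 1.26 and 1.56 on slide 1, 2.12 and 2.25 in the Six2Cre pair of slide 2, and 2.02 and 2.26 in the CreER pair. It was higher in each knockout (0.30, 0.14 and 0.24), yet the controls themselves differed by -0.86 (slide 1 minus slide 2), so the Six2Cre difference of 0.22 had an SE of 0.43.

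Col4a1 and Col4a2 encode the α1 and α2 chains of the ubiquitous collagen IV network. Col4a1 read 3.12 in Six2Cre control 5 and 2.69 in knockout 7, then 3.62 in control 2 and 2.93 in knockout 9. The knockouts lay below both controls. The difference was -0.56 (SE 0.30, limma adjusted p = 1.00; 0.420 with the slide block and 0.138 with trend and robust moderation), or -0.43 and -0.69 within slides. A second Col4a1 probe differed by -0.39 and -0.58.

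Col4a2 read 2.40 and 2.09 on slide 1, and 2.97 and 2.42 on slide 2. Knockout 9, at 2.42, lay just above control 5, so the groups overlapped although each knockout was lower than its slide partner. The difference was -0.43 (SE 0.32), or -0.31 and -0.55 within slides, and a second probe gave -0.44 and -0.60. Without Six2Cre control 2 the difference was -0.15, and without control 5 it was -0.72. In the CreER pair both genes were a little higher on the knockout array, Col4a1 at 3.41 and 3.52 and Col4a2 at 2.89 and 2.99. The endothelial markers, whose cells are among those that make this collagen, had a Six2Cre median difference of -0.07, with 5 of 10 lower. Their summed level was 33.5, 34.8, 36.5 and 35.3 on Six2Cre control 5, knockout 7, control 2 and knockout 9. It was 37.2 on the CreER control and 44.6 on the CreER knockout. The part of endothelial or other cells in the Col4a1 and Col4a2 differences was not tested.

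Col4a3, Col4a4 and Col4a5 encode the chains of the mature glomerular network. Col4a3 was dim, with processed signals of 15.5 to 54.4, and was well above background on 5 of the 6 arrays, all but the CreER knockout. It read -5.77 in Six2Cre control 5 and -5.21 in knockout 7, then -6.92 in control 2 and -5.93 in knockout 9. Each knockout was higher than its slide partner, but control 5 was higher than knockout 9. The difference was 0.78 (SE 0.50, limma adjusted p = 1.00). With normexp background correction it was 0.26, and without Six2Cre control 2 it was 0.20, against 1.35 without control 5. A second probe, well above background on 3 arrays, gave 0.31 and 0.69.

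Col4a4 read -0.34 and -0.0015 on slide 1, -0.62 and -0.70 in the Six2Cre pair of slide 2, and -0.60 and -0.45 in the CreER pair. The sign differed between the Six2Cre pairs, with a difference of 0.13 (SE 0.34).

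Col4a5 read -1.66 in Six2Cre control 5 and -1.25 in knockout 7, then -3.00 in control 2 and -2.21 in knockout 9. In the CreER pair, also on slide 2, it read -2.98 and -2.91. Slide parted these values more than genotype did: the slide 1 array was higher by 1.34 among Six2Cre controls and by 0.96 among knockouts. Each slide held a single Six2Cre pair, so slide cannot be told apart from other differences between these pairs. The difference was 0.60 (SE 0.59), 0.42 and 0.79 within slides. Col4a3 showed slide gaps of 1.15 and 0.72 in the same order. Its pairs, those of Col4a5 and those of Lamb2 were higher on all 3 knockout arrays, a pattern of 20.0% of features. The profiles nearest to Col4a5 were those of Tox (0.19), Pgm2 (0.24) and Apaf1 (0.26), and nearest to Col4a3 were Nipal1 (0.19), Emp1 (0.20) and Epb41l3 (0.24). These 6 genes were picked for that likeness, so they share the slide gap by choice.

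The chain genes of the glomerular filter were read beside podocyte markers, since podocytes make the mature chains. Of 10 podocyte markers 9 were lower in the Six2Cre mean, with a median difference of -0.92. The slit diaphragm gene Nphs1 was not well above background on Six2Cre knockout 7; on slide 2, where both arrays measured it, it differed by -2.32. Col4a3, Col4a4, Col4a5 and Lamb2 had Six2Cre differences of 0.78, 0.13, 0.60 and 0.22 on the same arrays. The summed podocyte level was 61.2 and 63.7 on the Six2Cre controls and 39.8 and 67.7 on knockouts 7 and 9. That sum, carried mostly by the bright Cdkn1c, did not part the groups. The markers' mean log2 level did, at -0.75 and -0.74 on the controls and -2.45 and -1.84 on the knockouts. Not well above background were 2 of the markers on knockout 7 and 1 on knockout 9. In both slide pairs 7 of the 10 were lower and 1 was higher. The part of these markers in the differences of the chain genes was not tested.

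Col4a6 encodes the α6 chain, which pairs with α5. It read -0.88 in Six2Cre control 5 and -0.02 in knockout 7. On slide 2 it read -0.62 in control 2 and 0.10 in knockout 9. Both knockouts lay above both controls and the slides differed little, unlike Col4a5. The difference was 0.79 (SE 0.26, limma adjusted p = 0.655; 0.274 with the slide block and 0.0546 with trend and robust moderation), and 1.82-fold and 1.64-fold higher within slides. Of its 2 other probes, 1 gave 0.84 and 0.81, and the other 0.26 and 0.21. With the mean of the 3 probes, Col4a6 no longer reached 1.5-fold in both pairs. The CreER control read -0.59 and the knockout -0.70. In the CreER pair the 2 other probes differed by -0.23 and 0.16, in the same order as above.

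Markers of other cell types were higher on the same Six2Cre knockout arrays as Col4a6. All 9 stromal markers were higher in each slide pair (median difference 0.88), with summed levels of 114 and 93.1 on the controls against 191 and 162 on the knockouts. Of 10 ureteric bud markers 7 were higher in the Six2Cre mean (median 0.46), with sums of 64.8 and 73.0 on the controls against 104.5 and 87.3 on the knockouts. On the CreER control and knockout, the stromal sum was 82.3 and 90.2 and the ureteric bud sum 78.7 and 84.8. All 8 macrophage markers were higher in both pairs (median 0.78). The part of these markers in the Col4a6 difference was not tested. Six2Cre control 2 also stood apart in skeletal muscle markers, with a summed level of 38.8 against 1.28 to 3.07 on the other arrays; without it, the Six2Cre differences of Lama1 and Col4a6 were -0.94 and 0.92 and that of Col4a1 was -0.31.

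Ratios of 2 members on the same array do not depend on the scaling between arrays. The pairs below were chosen after their values were seen and are a description. Each ratio is given in log2 units relative to its mean over the 3 control arrays. Col4a6 over Col4a1 read 0.08 in Six2Cre control 5, 1.37 in knockout 7, -0.16 in control 2 and 1.25 in knockout 9. The difference was 1.29 on slide 1 and 1.41 on slide 2, and -0.22 in the CreER pair. Col4a1 over Col4a2 differed by only -0.11, -0.13 and 0.0089 in these pairs, so these partner chains kept nearly the same ratio. Lama1 over Lama5 differed by -1.07, -0.66 and -0.33.

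**Figure D3:**
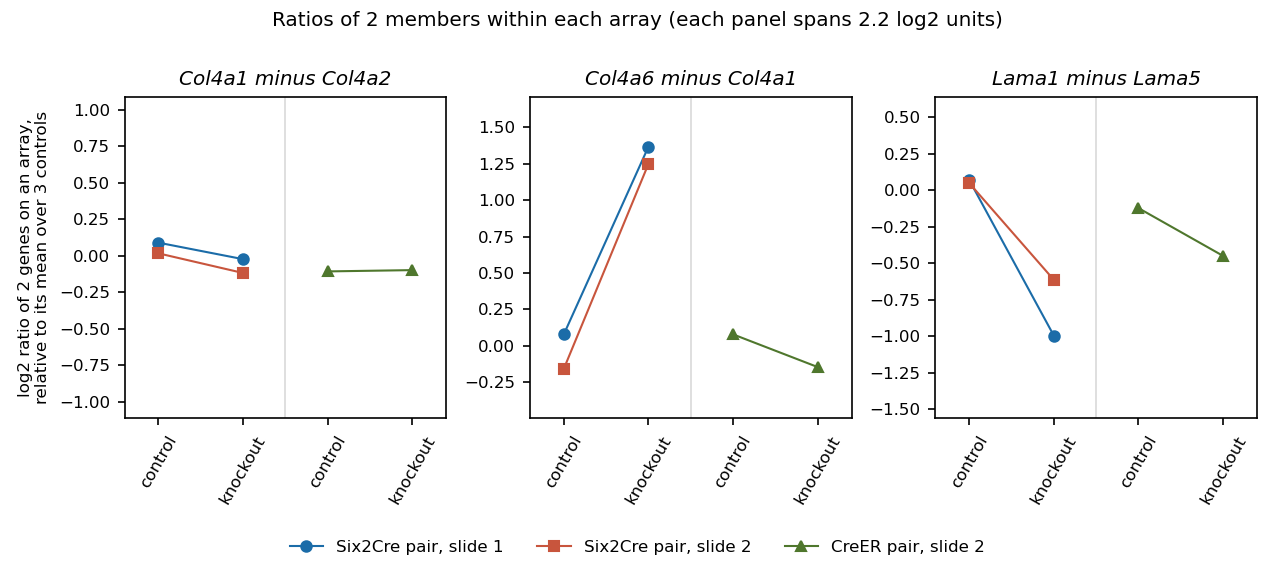
Log2 ratio of 2 members on each array, relative to the mean of that ratio over the 3 control arrays; lines join a control and a knockout of the same slide and line, and every panel spans the same number of log2 units. Col4a1 over Col4a2 stayed nearly flat, Col4a6 over Col4a1 was higher by 1.29 and 1.41 in the Six2Cre knockouts, and Lama1 over Lama5 was lower in all 3 pairs.

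In the CreER pair no member was at least 1.5-fold lower (6.12% of features) or at least 1.5-fold higher (4.36%) on the knockout array, and the median was 0.11 against -0.01 for all features. A pair of single arrays allows no test. Both slide pairs went one way and the CreER pair the other for Col4a1, Col4a2, Col4a6 and Lama5, a pattern of 24.5% of features. For Col4a6 this depended on the probe, as another of its probes was higher in the CreER pair too, by 0.16. The difference between lines was tested with limma, the lone CreER arrays being assumed to vary like the Six2Cre groups. It called 0% of features, with 615 at an unadjusted p under 0.05 and no member among them. For Col4a6 that difference was -0.90 (SE 0.45) and for Lama1 0.89 (SE 0.50), each with a limma adjusted p of 1.00.

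Other genes of the basement membrane were read from 6 lists. None of their genes passed the 4-group fit. For the counts below, 34.8% of all features were higher and 24.0% lower in both slide pairs. Below, "called" refers to limma with slide block, trend and robust moderation, and a called gene is given with the SE and adjusted p of that fit. That fit called 1.28% of features in each direction, and its adjusted p may be too low, as said above. In the 4-group fit the genes called below had limma adjusted p from 0.263 (Tinag) to 0.574 (Itga8). Other SEs are those of the 4-group fit. Of 7 further laminin chains 5 were measured, with a median Six2Cre difference of 0.43; 3 were higher and 0 lower in both pairs, and 0 were called. Lama4, the α chain of vessel walls, differed by 0.57 (SE 0.28), with 0.75 and 0.39 in the slide pairs and 0.80 in the CreER pair. Lamb3, a β chain of epithelial laminin, differed by 0.44, with 0.87 on slide 1 but only 0.013 on slide 2. Lama2, the muscle and stromal α chain, differed by 0.43.

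Of 24 other basement membrane components 23 were measured, with a median of -0.20; 11 were lower and 7 higher in both pairs. Tinag, a tubular basement membrane glycoprotein, was called lower (-1.77, SE 0.18, limma adjusted p = 0.0055). Smoc2, a calcium-binding matrix protein, was called higher (1.30, SE 0.15, limma adjusted p = 0.0071). Ntn4, a netrin that binds laminin, differed by -0.57 on slide 2 and was not well above background on knockout 7 of slide 1. Egfl6, an EGF-repeat matrix protein, differed by 0.97 and by 1.12 in the CreER pair. The linkers Nid1 and Nid2 and the proteoglycans Hspg2 and Agrn differed by 0.37, -0.20, -0.04 and -0.22, and none was called.

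Of 20 genes of collagen synthesis, folding and crosslinking 17 were measured, with a median of 0.16. Higher in both pairs were 12 and lower was 1, and 0 were called. The lysyl oxidase relatives Loxl1 and Loxl3, the lysyl hydroxylase Plod2 and the transglutaminase Tgm2 differed by 0.75, 0.56, 0.69 and 0.64. The collagen chaperone gene Serpinh1, chosen after its value was seen, differed by 0.07.

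Of 22 receptor genes 20 were measured, with a median of -0.05; 6 were lower and 5 higher in both pairs. Itga8, the integrin α8 chain that binds nephronectin, was called lower (-1.12 and -0.88 in the slide pairs, SE 0.14 of their mean, limma adjusted p = 0.0182). Ddr2, a collagen receptor kinase of mesenchyme, was called higher (0.90, SE 0.15, limma adjusted p = 0.0294). Itga6, a laminin-binding integrin chain, differed by -0.66, and Itga1, a collagen IV-binding chain, by -0.63.

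Of 16 proteases and inhibitors 14 were measured, with a median of 0.29; 2 were lower and 8 higher in both pairs. Adamts5, a proteoglycan-cleaving protease, was called higher (1.51, SE 0.14, limma adjusted p = 0.0043), whereas it differed by -1.01 in the CreER pair. The heparanase gene Hpse differed by 0.68, Mmp11 by 0.58 and the protease inhibitor gene Timp1 by 0.38. All 8 transcription factors of podocytes and glomerulus were measured, 6 lower and 2 higher in each slide pair. Their median was -0.31 and 0 were called. Among them Wt1 differed by -0.46. Tead1 differed by -0.52, with -0.88 on slide 1 and -0.16 on slide 2. Lmx1b, an activator of Col4a3 and Col4a4 in podocytes, differed by -0.34, with -0.63 and -0.047. Tead1 and Lmx1b were dim and not well above background on the CreER knockout array.

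**Figure D4:**
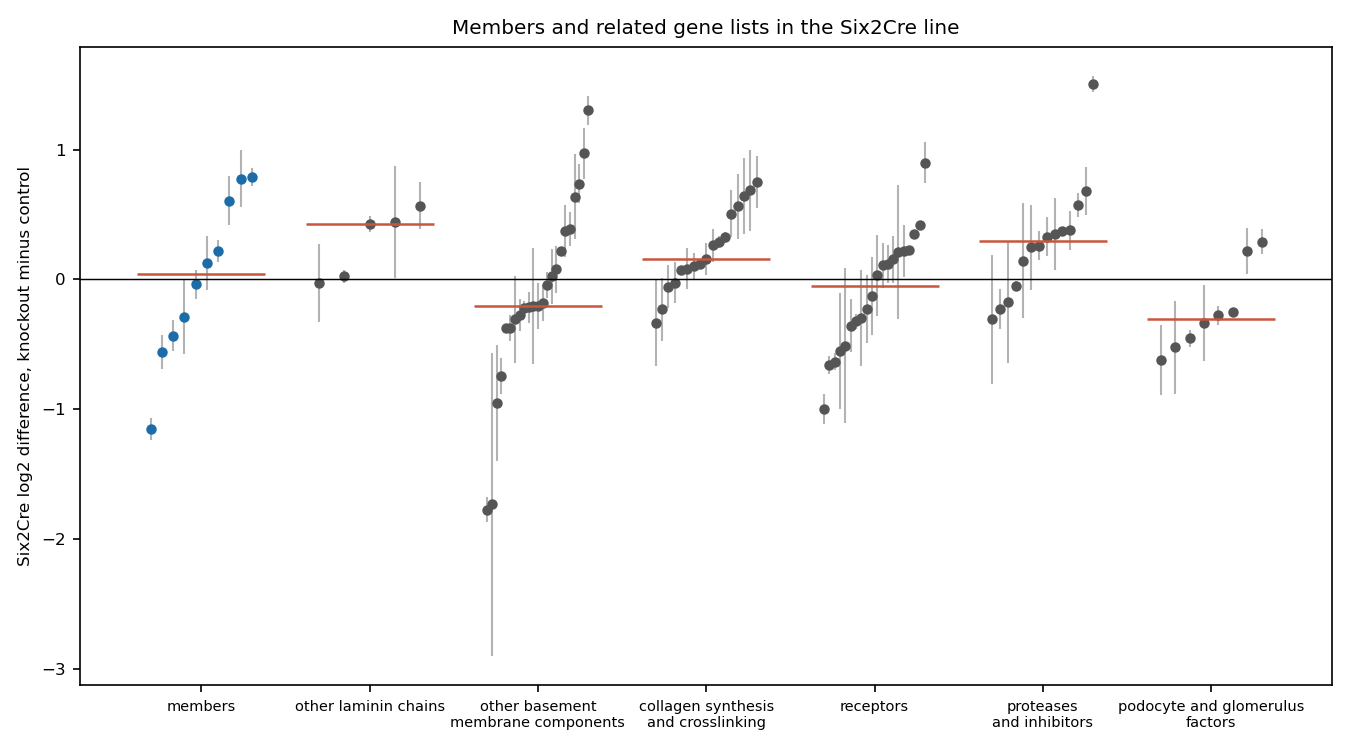
Six2Cre log2 difference, knockout minus control, of each measured gene in the 10 members and the 6 related lists; each point is a gene, grey lines join its slide pairs and red lines are the medians. The members lay on both sides of 0 around a median of 0.04, and the largest departures were in other lists, such as Tinag at -1.77 and Adamts5 at 1.51.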

How the data were processed

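RNA labelled with Cy3 was hybridised to 6 arrays. Per the file headers, the authors used Feature Extraction 10.5.1.1, whose processed signal is a linear, background-subtracted intensity without scaling between arrays. The deposited series table repeats these intensities.

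Outlier-flagged spots were left out and spots of a probe averaged. Probes were named through RefSeq accessions. Values are log2 processed signals after subtraction of each array's 75th percentile, with the probe of highest mean signal for each gene, and a feature had to be well above background on 2 or more arrays. limma 3.58.1 (R 4.3.3; lmFit, eBayes, two-sided, Benjamini-Hochberg, threshold 0.05) fitted the 4 groups together and was tested on simulated data. Figures and tables came from Python 3.11.15, pandas 2.3.3, the data.table package (1.17.8) and matplotlib 3.10.9. Alternatives were the slide block, trend and robust moderation, quantile normalization, normexp, the deposited table in place of the scanner files, the mean of probes, other filters and leaving out arrays.

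The members and lists were chosen with earlier results of these data known. All members are named; from each related list, up to 4 genes of largest difference with the same sign in both slide pairs; and for the 3 members of widest range, the 3 genes of nearest profile. The Sall1 check, core matrix genes and Nphs1 were added. Some genes that this rule names are not reported here. The number of arrays limits the precision: n = 2 per Six2Cre group and 1 per CreER group.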

Additional observations from a re-analysis of the deposited data

Results flagged for a closer look

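In 4 members both Six2Cre slide pairs went one way and the CreER pair the other, the CreER difference minus the Six2Cre difference being 0.67 for Col4a1, 0.54 for Col4a2, -0.90 for Col4a6 and 0.36 for Lama5. The limma test of this difference gave an adjusted p of 1.00 for each of the 4, and the CreER side is a single pair of arrays. For Lama5, the CreER difference of 0.07 became -0.06 with normexp background correction. For Col4a6, another probe was higher in the CreER pair too, by 0.16.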

How the results depend on the processing

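The Lama1 and Col4a6 differences kept their sign under every alternative run, from -1.36 to -0.94 for Lama1 and from 0.66 to 0.92 for Col4a6 with 1 array left out. Lama1 passed only with slide block, trend and robust moderation, which called 675 features in the Six2Cre line and 12 for the difference between lines. Over both lines, normexp called 36 features and trend with robust moderation 12. Members at least 1.5-fold higher in both pairs numbered 2 with quantile normalization and 0 with the mean of probes. Leaving out 1 array, the members' median ran from -0.24 (without Six2Cre knockout 7) to 0.028, and the differences from -0.22 to 0.48 for Col4a4, from -0.064 to 1.27 for Col4a5, from -0.26 to 0.18 for Lamb1 and from -0.21 to 0.65 for Lamb2. Over both lines they ran from -0.29 to 0.034 for Lama5 and from -0.039 to 0.11 for Lamb1, which was -0.013 with quantile normalization and -0.0019 with normexp. The line difference of Col4a3 was 0.11 with normexp. The cause of these changes was not tested. Of the tested differences of single members under alternatives, 321 kept their sign and 16 did not. Of the untested CreER differences, 58 kept it and 1 did not (Lama5 with normexp). Many of these alternatives could not change a sign, so the counts do not measure robustness. The slide block, the moderation, the filters and the deposited table left the differences the same or nearly so. Over both lines, leaving out either array of a pair gave the same value. No paired analysis was possible because the Six2Cre groups share no replicate number, so far as pairing by that number goes; the slide block pairs the arrays by slide. With 2 arrays a group, differences of the size of most members' SE cannot be resolved, and Col4a3 was dim.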
